A study of Mus musculus with 10 samples.

Results

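The G1 cyclins and CDK inhibitors decide whether a dividing cell commits to another round of DNA replication or leaves the cell cycle, and they are described here in the lumbar spinal cord of mouse embryos at E12.5. The members are 10 genes of the 54146 in the count table, found by matching gene identifiers to their symbols: the D cyclins *Ccnd1*, *Ccnd2* and *Ccnd3*, the E cyclins *Ccne1* and *Ccne2*, the Cip/Kip inhibitors *Cdkn1b* and *Cdkn1c*, and the INK4 inhibitors *Cdkn2a*, *Cdkn2c* and *Cdkn2d*. The third Cip/Kip gene was left out. RNA with poly(A) tails was sequenced from 5 *Dot1l*-cKO embryos and 5 control littermates of 2 litters. From litter 1 came controls 4, 5 and 9 and *Dot1l*-cKO embryos 2, 3 and 7, and from litter 2 controls 5 and 7 and *Dot1l*-cKO embryos 4 and 6, by their numbers in the labels. The labelled strain of all of them was B6.Cg-E2f1Tg(Wnt1-cre)2Sor/J, and each had at least 1 floxed *Dot1l* allele. *Dot1l*-cKO embryos were Wnt1cre2/+ with Dot1l fl/fl, controls of litter 1 were +/+ with Dot1l fl/fl, and controls of litter 2 were +/+ with Dot1l fl/+. No control therefore carried the cre transgene, which the strain name places at *E2f1*. Wnt1-cre acts mostly in the dorsal neural tube and the neural crest, so the tissue held cells with and without the deletion. From its stainings the study proposes that ventral cells might be affected as well. By the labels the dorsal root ganglia stayed on the cord.

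In G1, D cyclins activate CDK4 and CDK6 and E cyclins activate CDK2, and both kinases phosphorylate RB proteins so that E2F factors can drive the genes of S phase. INK4 proteins bind CDK4 and CDK6, and Cip/Kip proteins bind whole cyclin-CDK complexes. In the developing spinal cord, progenitors of the ventricular zone express D cyclins, and p57 and p27, the products of *Cdkn1c* and *Cdkn1b*, are known for their role when newborn neurons leave the cycle.

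*Ccne1* was the only member that decreased in the embryos labelled *Dot1l*-cKO with edgeR, and no member increased, while DESeq2 called both *Ccne1* and *Ccnd2* lower. All 5 cyclins had a negative log2 fold change, with a median of -0.23, while 3 of the 4 tested inhibitors had a positive one, with a median of 0.08. With a correction for the GC content of the transcripts these medians were -0.16 and 0.016. *Cdkn2a* was close to absent and was not tested. Over the 9 tested members the median log2 fold change was -0.04, beside -0.01 over all 18901 tested genes, of which 52.2% were negative. With edgeR's quasi-likelihood test on all genes, the litter in the model and p-values adjusted after Benjamini and Hochberg to a threshold of 0.05, 602 of all tested genes passed (3.19%), 376 of them higher (1.99%) and 226 lower (1.2%). The 1 member of 9 is read against these shares. At an unadjusted p below 0.05 there were 3 members, all lower, and 4198 genes (22.2%), and DESeq2 called 2 members lower and none higher.

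Values that concern all results were the following. Total counts on genes ranged from 40949585 to 61194291 in controls (median 51225670) and in *Dot1l*-cKO embryos from 54870771 to 68928443 (median 59442058). *Dot1l* counted over the whole gene was at 94.0 ± 7.85 CPM in controls and 106 ± 6.15 CPM in the other group (SD, n = 5 each), which does not check the genotype, so the groups are named by label. *Xist* lay between 6.00 and 6.79 CPM in both *Dot1l*-cKO embryos of litter 2 and between 499 and 890 CPM in the other 8 embryos, so sex and genotype were unequal there. A fit with *Xist* as a covariate therefore takes its genotype difference almost wholly from litter 1. It cannot tell sex from genotype in litter 2. Neural progenitor markers summed to between 3055 and 4399 CPM and neuronal markers to between 15465 and 18478 CPM over all 10 embryos, so both cell types of the labelled tissue were measured.  Libraries differed in how levels depended on the GC content of the transcript. In litter 2 the slope was -0.13 log2 units per 10 percentage points of GC in both controls and 0.03 and 0.09 in the *Dot1l*-cKO embryos, while in litter 1 it ran from -0.02 to 0.04 in controls and from -0.04 to 0.12 in *Dot1l*-cKO embryos. Members are GC-rich to different degrees, so values with a GC correction are also given for members it moved and for lists whose calls it ended. In bulk tissue a change in the number of cells and a change in RNA per cell cannot be told apart, and as each library comes from 1 embryo the spread is that between embryos.

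**Figure D1:**
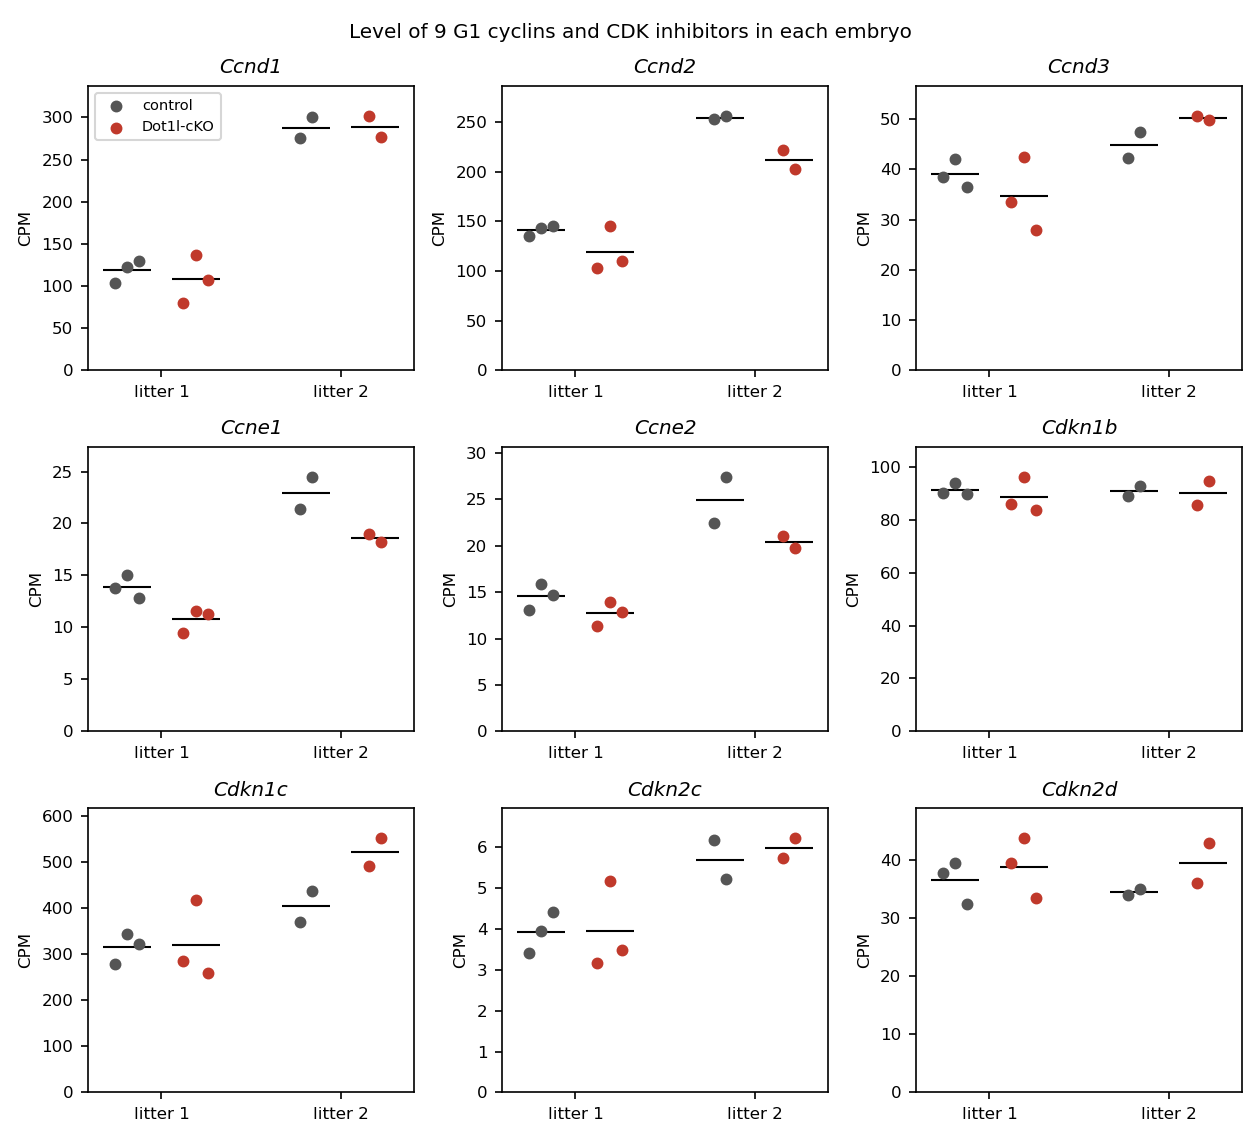
Level of the 9 tested members in each embryo, in CPM (counts scaled to a common library size after TMM normalization) on a linear axis from 0, by litter, with controls in grey, *Dot1l*-cKO embryos in red and horizontal lines at the means. The 5 *Ccne1* points of *Dot1l*-cKO embryos lie below the controls of their own litter, and 7 of the 9 genes are higher in litter 2 than in litter 1.

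Compared per kilobase of exon, *Cdkn1c* had the highest level of the family, at 172 ± 29.1 CPM per kb in controls (SD, n = 5). *Ccnd1* followed at 39.6 ± 19.9, then *Cdkn2d* at 22.7 ± 1.80, *Cdkn1b* at 19.996 ± 0.499 and *Ccnd2* at 19.8 ± 6.58 CPM per kb. From *Ccnd1* to *Ccnd2*, each gene overlapped its neighbour in this order over the 5 controls. *Ccne1* (6.57 ± 1.92), *Ccne2* (5.35 ± 1.72) and *Ccnd3* (4.72 ± 0.481 CPM per kb) were lower and overlapped each other, and *Cdkn2c* was at 1.73 ± 0.404 CPM per kb. The inhibitors thus held both the top and the bottom of this order of levels.

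*Ccne1*, which encodes cyclin E1, the partner of CDK2 at the entry into S phase, lies on chromosome 7 from 38097984 to 38107534 on the minus strand of mm10. The 3 controls of litter 1 were at 13.8, 15.0 and 12.8 CPM and the 3 *Dot1l*-cKO embryos at 9.46, 11.5 and 11.3 CPM. In litter 2 the controls were at 21.4 and 24.4 CPM and the *Dot1l*-cKO embryos at 19.0 and 18.2 CPM. Each of the 5 *Dot1l*-cKO embryos was thus below every control of its own litter, though the groups overlapped when litters were pooled. *Ccne1* was the only member without overlap in both litters and in the same direction, a pattern held by 8.1% of all tested genes. On the log2 scale the fold change was -0.34 with a standard error of 0.08 (95% confidence interval -0.50 to -0.17, adjusted p = 0.0356, edgeR). It was -0.36 within litter 1 and -0.30 within litter 2, and -0.34 with the GC correction (adjusted p = 0.0304). The call was lost with *Xist* as a covariate (-0.37, adjusted p = 0.150), a fit that rests mostly on litter 1, and without the litter in the model (adjusted p = 0.674). It was kept without *Dot1l*-cKO embryo 3 (adjusted p = 0.0378) or 7 (0.0230) of litter 1. It was lost without any one control, and without *Dot1l*-cKO embryo 2 of litter 1 or embryo 4 or 6 of litter 2, with adjusted p between 0.0510 and 0.103, while the log2 fold change stayed between -0.37 and -0.29 over all 10 of these fits.

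The promoter of *Ccne1*, the gene that passed the test, is shown with the upstream promoter of *Cdkn2a*, the only member promoter with the letters searched for below. Both are RefSeq sequences of GRCm38.p6 from 250 bases before to 50 bases after the start of the gene, at chr7:38107441-38107740 and chr4:89294570-89294869, on the minus strand. Capitals mark the searched letters.
*Ccne1*: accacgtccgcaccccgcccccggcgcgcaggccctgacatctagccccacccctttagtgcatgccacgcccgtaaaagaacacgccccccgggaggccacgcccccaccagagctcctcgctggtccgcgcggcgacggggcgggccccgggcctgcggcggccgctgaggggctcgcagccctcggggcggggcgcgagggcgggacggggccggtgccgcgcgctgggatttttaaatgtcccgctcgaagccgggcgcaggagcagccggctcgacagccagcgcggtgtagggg
*Cdkn2a*: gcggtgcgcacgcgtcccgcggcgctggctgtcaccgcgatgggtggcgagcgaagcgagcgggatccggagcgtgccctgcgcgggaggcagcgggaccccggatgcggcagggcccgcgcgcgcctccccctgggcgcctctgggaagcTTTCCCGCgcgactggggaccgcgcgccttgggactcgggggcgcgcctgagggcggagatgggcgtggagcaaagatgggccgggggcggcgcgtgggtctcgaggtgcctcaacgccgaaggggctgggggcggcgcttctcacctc

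The letters searched for were 4 forms of the E2F site, TTTGGCGC, TTTCCCGC, TTTGCCGC and TTTCGCGC, on both strands. They occurred in 744 of 32851 promoters of this length (2.26%). RefSeq promoters were matched for 6 of the 10 members, *Ccnd3*, *Ccne1*, *Cdkn1b*, *Cdkn2a*, *Cdkn2c* and *Cdkn2d*, with 9 promoters in all. TTTCCCGC began 99 bases before the start in the upstream promoter of *Cdkn2a*, and the other 8 promoters did not hold these letters in this window.

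*Ccne2*, the gene of cyclin E2 (chromosome 4 from 11191351 to 11204779, plus strand), did not pass the test. Controls of litter 1 were at 13.1, 15.8 and 14.7 CPM and *Dot1l*-cKO embryos at 11.3, 13.9 and 12.8 CPM, which overlapped. Both controls of litter 2, at 22.5 and 27.3 CPM, were above the *Dot1l*-cKO embryos, at 21.1 and 19.7 CPM. The log2 fold change was -0.23 with a standard error of 0.08 (unadjusted p = 0.0129, adjusted p = 0.120, edgeR). *Ccne2* has a GC content of 36.3%, lower than nearly all tested genes (percentile 0.785), and with the GC correction its log2 fold change was -0.16 (adjusted p = 0.254). *Ints8* overlaps 17.4% of its exon bases on the other strand. The library kit does not mark strand, so reads from such shared bases cannot be told apart by strand.

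*Ccnd2*, the gene of cyclin D2 (chromosome 6 from 127125162 to 127152193, minus strand), came closest to *Ccne1* among the D cyclins. The controls of litter 1 lay close together at 135, 143 and 146 CPM, and the *Dot1l*-cKO embryos were at 103, 145 and 111 CPM, where 1, embryo 3, reached the control range. Controls of litter 2 were at 253 and 255 CPM, both above the *Dot1l*-cKO embryos at 222 and 202 CPM. The log2 fold change was -0.25 with a standard error of 0.08 (95% confidence interval -0.41 to -0.08, unadjusted p = 0.00590, adjusted p = 0.0839, edgeR). It was -0.24 within litter 1 and -0.26 within litter 2, and -0.22 with the GC correction (adjusted p = 0.133). Without embryo 3 of litter 1 it was -0.34 and passed (adjusted p = 0.0103), and DESeq2's Wald test also called it (adjusted p = 0.0346).

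*Ccnd1*, the gene of cyclin D1 (chromosome 7 from 144929931 to 144939925, minus strand), showed no difference between genotypes beyond the spread. In litter 1 the controls were at 103, 123 and 130 CPM and the *Dot1l*-cKO embryos at 80.5, 137 and 108 CPM. In litter 2 the controls were at 276 and 300.0 CPM and the *Dot1l*-cKO embryos at 301 and 277 CPM, an overlap in each litter. Its log2 fold change was -0.08 with an interval from -0.31 to 0.16 (adjusted p = 0.723, edgeR). *LTO1* overlaps 23.4% of the exon bases of *Ccnd1* on the other strand.

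*Ccnd3*, the gene of cyclin D3 (chromosome 17 from 47505051 to 47599691, plus strand), had point estimates of opposite sign in the litters. Controls of litter 1 were at 38.6, 42.2 and 36.4 CPM and *Dot1l*-cKO embryos at 33.5, 42.6 and 27.9 CPM, a log2 fold change of -0.17. The *Dot1l*-cKO embryos of litter 2, at 50.6 and 49.8 CPM, were above the controls, at 42.3 and 47.5 CPM, a log2 fold change of 0.16. The difference between the litters, 0.33, did not pass (interval -0.07 to 0.74, adjusted p = 0.646, edgeR). Over both litters the log2 fold change was -0.04 (interval -0.25 to 0.18, adjusted p = 0.861 by the same test), and with the GC correction it was -0.11, with 0.015 within litter 2.

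Among the inhibitors, *Cdkn1c* (chromosome 7 from 143458339 to 143461050, minus strand) was the most abundant and had the highest point estimate. Controls of litter 1 were at 279, 344 and 323 CPM and *Dot1l*-cKO embryos at 286, 417 and 258 CPM. In litter 2 both *Dot1l*-cKO embryos, at 492 and 552 CPM, were above the controls, at 371 and 439 CPM. The groups overlapped in litter 1 through the wide spread of the *Dot1l*-cKO embryos and did not overlap in litter 2. The log2 fold change was 0.16 with a standard error of 0.12 (interval -0.09 to 0.42, adjusted p = 0.455, edgeR). Litter 2 fitted alone called *Cdkn1c* (0.37, adjusted p = 0.0241), while the fit of both litters gave 0.37 for litter 2 with an adjusted p of 0.301. *Cdkn1c* has a GC content of 59.4% (percentile 94.2), and with the GC correction its log2 fold change was 0.02 over both litters and 0.12 within litter 2. The antisense gene *Gm44732* overlaps 30.7% of its exon bases.

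*Cdkn1b* (chromosome 6 from 134920401 to 134925513, plus strand) was the steadiest member. Its level was 91.0 ± 2.27 CPM in controls and 89.1 ± 5.73 CPM in *Dot1l*-cKO embryos (SD, n = 5 each), with values from 88.8 to 94.0 and from 83.6 to 95.9 CPM. The groups overlapped in both litters. Its log2 fold change was -0.03 (interval -0.13 to 0.07, adjusted p = 0.757, edgeR), the narrowest interval of the family, so that a change beyond 0.13 in either direction lies outside it.

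*Cdkn2d*, the gene of the INK4 protein p19 (chromosome 9 from 21288410 to 21291407, minus strand), was at 37.7, 39.5 and 32.5 CPM in controls of litter 1 and at 39.4, 43.7 and 33.5 CPM in *Dot1l*-cKO embryos. Controls of litter 2 were at 34.03 and 34.97 CPM and the *Dot1l*-cKO embryos, at 36.0 and 42.9 CPM, were both higher. Its log2 fold change was 0.13 (interval -0.04 to 0.30, adjusted p = 0.361, edgeR) and 0.08 with the GC correction.

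*Cdkn2c*, the gene of the INK4 protein p18 (chromosome 4 from 109660876 to 109667189, minus strand), was at 4.64 ± 1.09 CPM in controls and 4.76 ± 1.36 CPM in *Dot1l*-cKO embryos (SD, n = 5 each), from 172 to 374 counts per embryo, and overlapped in both litters. Its log2 fold change was 0.03 with the widest interval of the family (-0.26 to 0.32, adjusted p = 0.930, edgeR). With the GC correction it was -0.08.

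*Cdkn2a* (chromosome 4 from 89274471 to 89294653, minus strand), which encodes p16 and p19ARF, had 0 counts in all 5 controls. The *Dot1l*-cKO embryos had 0, 4 and 0 counts in litter 1 and 2 and 1 counts in litter 2. A count of 0 allows a level of up to 0.0491 to 0.0758 CPM in the controls (3 counts per library, counting error only). The 1 embryo with 4 counts, at 0.0716 CPM, was just above its own limit of 0.0537 CPM and the other 9 were below theirs, so no fold change is given.

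**Figure D2:**
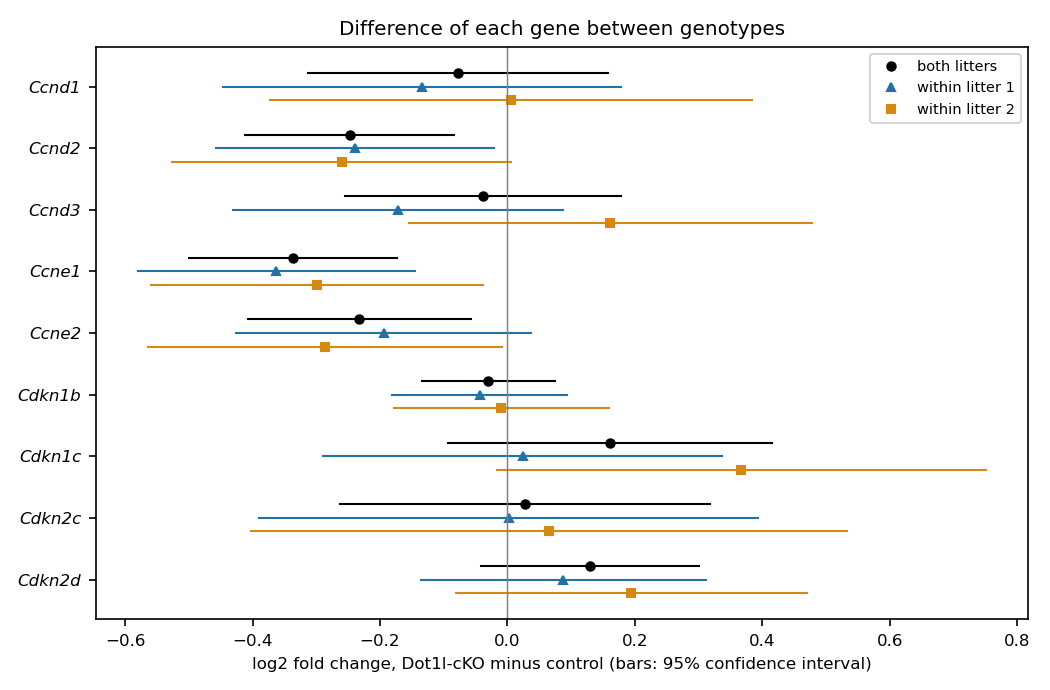
Log2 fold change of *Dot1l*-cKO over control for the 9 tested members, from the fit of both litters (black circles), within litter 1 (blue triangles) and within litter 2 (orange squares), with 95% confidence intervals as bars. The intervals of *Ccne1* lie below 0 in all 3 estimates, and those of *Cdkn1b* are the narrowest around 0.

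Contrasting the genotypes within each litter, no member passed the adjusted threshold in litter 1 or in litter 2 with edgeR on the 4 groups of litter and genotype. The share of all genes called was 0.661% (125 genes) in litter 1 and 0.19% (36 genes) in litter 2. At an unadjusted p below 0.05, *Ccnd2* and *Ccne1* passed in litter 1, and *Ccne1* and *Ccne2* in litter 2, all 4 values being lower in *Dot1l*-cKO embryos. That is 2 of 9 members in each litter, beside 15.7% and 17.8% of all genes. DESeq2's Wald test on the same groups called *Ccne1* in litter 1 (adjusted p = 0.0308) and no member in litter 2. The difference between the litters' effects passed for none of the 9 members and for 2 of all genes (0.0106%), and neither edgeR at an unadjusted p below 0.05 nor DESeq2 at the adjusted threshold called a member. Over the members the litter difference ranged from -0.09 in *Ccne2* to 0.34 in *Cdkn1c*.

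To set cycling against exit in each embryo, the mean log2 CPM of the 5 cyclins was taken minus that of the 4 tested inhibitors. In litter 1 this difference was -0.10, -0.09 and -0.11 in the controls and -0.42, -0.37 and -0.21 in the *Dot1l*-cKO embryos. In litter 2 it was 0.40 and 0.53 in the controls and 0.30 and 0.05 in the *Dot1l*-cKO embryos. All *Dot1l*-cKO embryos were therefore below the controls of their litter, by 0.24 in litter 1 and 0.29 in litter 2, while the litters themselves were further apart than the genotypes. As the members were chosen with results of these data known, no test was made. With the same GC curves taken off, the mean difference between genotypes was -0.19 in place of -0.26, and *Dot1l*-cKO embryo 4 (0.32) then lay between the controls of litter 2 (0.31 and 0.46).

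**Figure D3:**
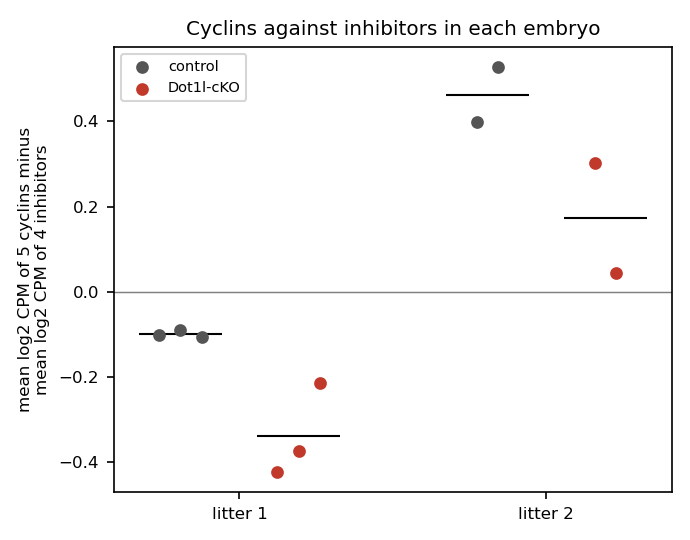
Mean log2 CPM of 5 G1 cyclins minus mean log2 CPM of 4 CDK inhibitors in each embryo, by litter, for controls (grey) and *Dot1l*-cKO embryos (red), with lines at the means. Controls of litter 1 lie between -0.11 and -0.09 and controls of litter 2 at 0.40 and 0.53, each above the *Dot1l*-cKO embryos of the litter.

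**Figure D4:**
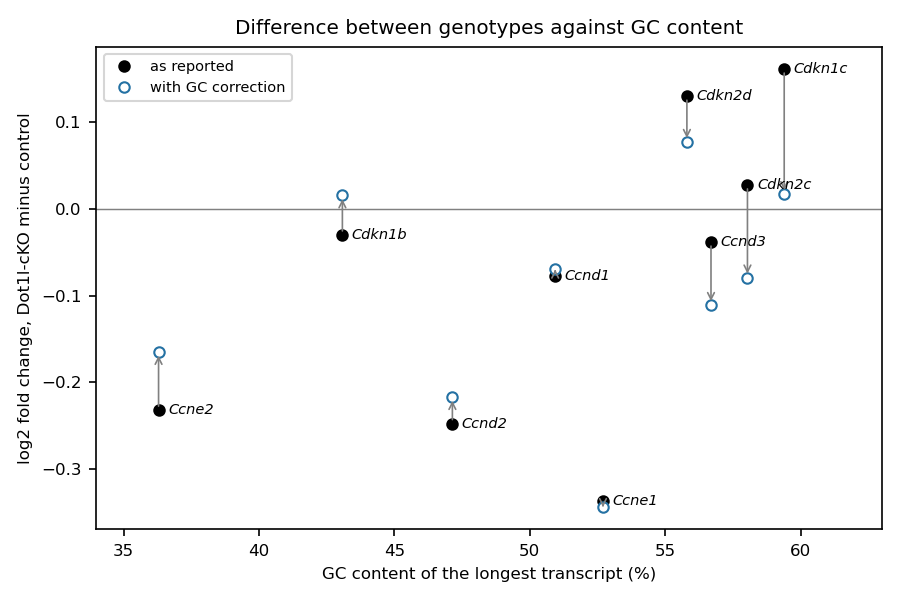
Log2 fold change of *Dot1l*-cKO over control for the 9 tested members against the GC content of the longest transcript in percent, as reported (filled) and with the GC correction (open), joined by arrows. *Ccne1* stays at -0.34, *Cdkn1c* moves from 0.16 to 0.02 and *Ccne2* from -0.23 to -0.16.

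*Dot1l*-cKO embryo 3 of litter 1 stood apart from its *Dot1l*-cKO littermates in these genes. It had the highest CPM of the 3 in all 9 tested members, cyclins and inhibitors alike, while it was the highest in 34.6% of all tested genes. It also had the steepest positive GC slope of all embryos, 0.12, and the part of this slope in its levels was not tested. Without it the log2 fold change was -0.18 for *Ccnd1*, -0.34 for *Ccnd2*, 0.05 for *Cdkn1c* and -0.10 for *Cdkn2c*.

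The litter moved the cyclins more than the genotype did. In litter 2, 7 of the 9 tested members were higher than in litter 1 with edgeR, beside 36.4% of all genes called, 17.6% higher and 18.7% lower. *Ccnd1* had the largest litter difference, with a log2 fold change of 1.35 and a standard error of 0.11 (adjusted p = 1.8e-06). *Ccnd2* (0.84), *Ccne1* (0.76) and *Ccne2* (0.73) followed, then *Cdkn2c* (0.57, adjusted p = 0.00482), *Cdkn1c* (0.53, adjusted p = 0.00317) and *Ccnd3* (0.37, adjusted p = 0.0110). *Cdkn1b* (0.01, interval -0.09 to 0.12) and *Cdkn2d* (-0.03, interval -0.20 to 0.15) did not pass. In the controls fitted alone, 6 members passed, beside 27.9% of all genes, with *Ccnd3* at 0.20 (adjusted p = 0.11004). In the fit of the 4 groups the same contrast of controls passed for 4 members, beside 25.7% of all genes, as *Cdkn1c* (adjusted p = 0.120) and *Cdkn2c* (0.0648) were lost too. For 5 members, *Ccnd1*, *Ccnd2*, *Ccne1*, *Ccne2* and *Cdkn2c*, all 4 embryos of litter 2 were above all 6 of litter 1, a separation of litters in either direction seen in 24.3% of all genes. The litters also differ in the floxed alleles of the controls and in whatever a litter shares, and these cannot be told apart.

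Genes with the most similar course over the 10 embryos were found by the Pearson correlation of log2 CPM after the mean of each litter was subtracted, among 11019 genes, as a description. These points share libraries, depth and base composition. *Ccne1* was closest to *Ddx39b* (r = 0.98) and *Anp32b* (0.97), *Ccne2* to *Cep78* and *Tmem165* (0.97 each), and *Ccnd2* to *Lbr* and *Fanca* (0.97 each). *Ccnd1* was closest to *Slc1a5* and *Msx3* (0.97 each) and *Ccnd3* to *Foxc1* (0.98) and *Mri1* (0.95). Of the inhibitors, *Cdkn1c* was closest to *Mycn* (0.99) and *Usp21* (0.98), *Cdkn2d* to *Eif3g* (0.97) and *Rhob* (0.96), *Cdkn2c* to *2700081O15Rik* (0.93) and *Cog1* (0.92), and *Cdkn1b* to *Pias4* (0.92) and *H2afx* (0.89). Between members, r was 0.87 for *Ccne1* with *Ccne2* and 0.83 for *Ccnd2* with *Ccne2*, and *Ccnd3* went with an inhibitor, *Cdkn1c* (0.80).

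Of 11 G1 CDKs and their activators, 1 decreased and none increased, with a median log2 fold change of -0.08. The 1 was *Cdc25a*, the gene of a phosphatase that removes inhibitory phosphates from CDK2 (-0.23, standard error 0.05, adjusted p = 0.0376, edgeR). It was called in 2 of the 10 fits without 1 embryo, those without *Dot1l*-cKO embryo 3 or 7 of litter 1. It was not called with the GC correction (adjusted p = 0.0585) or with *Xist* as a covariate (adjusted p = 0.210). The kinase genes did not pass, with log2 fold changes of -0.02 for *Cdk4*, -0.10 for *Cdk6* and -0.19 for *Cdk2*. Of 16 genes for the turnover of G1 cyclins and inhibitors none passed with edgeR (4 lower and 0 higher at an unadjusted p below 0.05, beside 22.2% of all genes in either direction), DESeq2 called 1 lower, and the median was -0.05. *Skp2*, the receptor that brings p27 to degradation, was at -0.24 (adjusted p = 0.0847), and *Fbxw7*, the receptor for cyclin E, at -0.12 (adjusted p = 0.122). The 1 tested gene of 2 other CDK inhibitors, *Cdkn3*, was at -0.24 (adjusted p = 0.209).

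Downstream, 15 of 16 RB and E2F genes had a negative log2 fold change (median -0.12), 7 were lower at an unadjusted p below 0.05 and DESeq2 called 6 lower, and 1 decreased with edgeR: *E2f7*, a repressing E2F (-0.37, standard error 0.08, adjusted p = 0.0318, edgeR). *E2f7* was called in 4 of the 10 fits without 1 embryo, those without control 5 or *Dot1l*-cKO embryo 3 or 7 of litter 1 or *Dot1l*-cKO embryo 4 of litter 2. *E2f1*, the gene that the strain name gives for the transgene, was at -0.32 (adjusted p = 0.0492 by the same test) and was called in 2 of these fits, without embryo 3 or 7 of litter 1. *E2f1* was called with the GC correction (adjusted p = 0.0220, edgeR) and not with *Xist* as a covariate (adjusted p = 0.163). As only *Dot1l*-cKO embryos carried the transgene, its site and the deletion of *Dot1l* cannot be told apart. Of 30 S phase genes 4 decreased and none increased (median -0.15, 27 negative), namely *Cdc45* (-0.37), *Pola1* (-0.33), *Mcm6* (-0.25) and *Pcna* (-0.19), all of the replication machinery. At an unadjusted p below 0.05, 15 S phase genes were lower, beside 22.2% of all genes in either direction, and DESeq2 called 7. With the GC correction 2 of these calls were left, *Pola1* (adjusted p = 0.0713) and *Pcna* (0.0845) being lost, with a median over the list of -0.13. Of 30 G2/M genes 3 decreased and all 30 were negative (median -0.27), with *Mki67*, the gene of the proliferation marker Ki-67, at -0.49, *Cenpf* at -0.43 and *Kif23* at -0.34. At an unadjusted p below 0.05, 24 G2/M genes were lower and 0 higher. With the GC correction 1 G2/M gene was called, *Kif23*, while *Mki67* (adjusted p = 0.0501) and *Cenpf* (0.0588) were lost, and the list's median was -0.25 with all 30 negative. With *Xist* as a covariate 0 genes of the RB and E2F, S phase and G2/M lists were called, with medians of -0.09, -0.18 and -0.27. Among the other cyclins and CDKs of S, G2 and M none of 8 passed with edgeR (6 lower at an unadjusted p below 0.05, 5 called lower by DESeq2) although all were negative (median -0.27), *Ccnf* at -0.27 (adjusted p = 0.0600) and *Ccnb1* at -0.29 (adjusted p = 0.0679) being nearest. These counts changed with single embryos. Decreased S phase genes numbered 0 without control 4 or 9 or *Dot1l*-cKO embryo 2 of litter 1 or without control 7 or *Dot1l*-cKO embryo 6 of litter 2. They numbered 1 without control 5 of either litter and 2 without *Dot1l*-cKO embryo 4 of litter 2. Without *Dot1l*-cKO embryo 7 of litter 1 they numbered 5, and without embryo 3 of litter 1 they numbered 7. Decreased G2/M genes numbered 0 without any control of litter 1 or without control 5 or *Dot1l*-cKO embryo 6 of litter 2. They numbered 1 without control 7 of litter 2 or *Dot1l*-cKO embryo 2 of litter 1, and 4 without *Dot1l*-cKO embryo 4 of litter 2. Without *Dot1l*-cKO embryo 7 of litter 1 they numbered 8 and without embryo 3 of litter 1 they numbered 11, and DESeq2 called 14.

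The markers of progenitors and of neurons did not move as blocks. Of 15 neural progenitor genes 1 decreased, *Prom1* (-0.23), with a median of -0.05, and of 20 neuronal genes 2 increased, *Stmn3* (0.39) and *Celf3* (0.26), and 1 decreased, *Nefl* (-0.22), with a median of 0.04. *Prom1* was lost with the GC correction (adjusted p = 0.0655), and with *Xist* as a covariate 0 genes of both lists were called. Each of these 4 genes was called in 2 to 5 of the 10 fits without 1 embryo. At an unadjusted p below 0.05, 2 progenitor genes were lower, and 6 neuronal genes were higher and 4 lower. DESeq2 called 2 progenitor genes lower, and 4 neuronal genes higher and 1 lower. Between litters the medians moved more, with litter 2 over litter 1 at 0.55 for progenitor, 1.02 for G2/M, 0.78 for S phase and -0.20 for neuronal genes.

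Markers of the other cell types in the tissue moved in part with genotype, and their part in the results above was not tested. All 9 tested skeletal muscle genes were negative though none passed with edgeR (1 lower at an unadjusted p below 0.05, 0 called by DESeq2), and their summed level in litter 2 was 118 to 122 CPM in controls and 32.7 to 35.9 CPM in *Dot1l*-cKO embryos. Over all embryos it ran from 7.72 to 122 and from 8.99 to 92.2 CPM. Of 14 genes of dorsal root ganglion neurons 1 decreased, *Runx3* (-0.71, with -1.10 in litter 1 and -0.11 in litter 2), called in 2 of the 10 fits without 1 embryo, those without control 7 or *Dot1l*-cKO embryo 4 of litter 2. The summed level of the 14 genes in litter 1 was 1260 to 1388 CPM in controls and 1061 to 1289 CPM in *Dot1l*-cKO embryos. In litter 2 it ran the other way, from 772 to 801 CPM in controls and from 844 to 943 CPM in *Dot1l*-cKO embryos, and the list's median log2 fold change was -0.17 in litter 1 and 0.12 in litter 2. Of 10 erythroid genes 1 increased, *Hbb-bh1* (0.41), with a median over the list of -0.04 in litter 1 and 0.48 in litter 2. *Hbb-bh1* was called in 4 of the 10 fits without 1 embryo, those without control 5 or *Dot1l*-cKO embryo 3 or 7 of litter 1 or *Dot1l*-cKO embryo 4 of litter 2, and not with *Xist* as a covariate (adjusted p = 0.231). None of the 8 motor neuron, 11 vascular, 11 microglial and 14 mesenchymal genes passed with edgeR. At an unadjusted p below 0.05, 3 motor neuron genes were lower and 1 higher, 5 vascular genes lower, 6 microglial genes higher and 1 mesenchymal gene lower, and DESeq2 called 2 motor neuron genes lower, 1 vascular gene lower, 1 microglial gene higher and 0 mesenchymal genes. Beside these stand 22.2% of all tested genes at an unadjusted p below 0.05 in either direction. DESeq2's counts over all genes are given in the closing section. The summed level of the vascular genes in litter 1 was 511 to 585 CPM in controls and 433 to 462 CPM in *Dot1l*-cKO embryos, which did not overlap. In litter 2 it was 344 to 423 CPM in controls and 373 to 446 CPM in *Dot1l*-cKO embryos, which overlapped. The median log2 fold change of the vascular genes was -0.35 in litter 1 and 0.07 in litter 2. The median log2 fold change of the mesenchymal genes was -0.25 in litter 1 and 0.27 in litter 2.

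**Figure D5:**
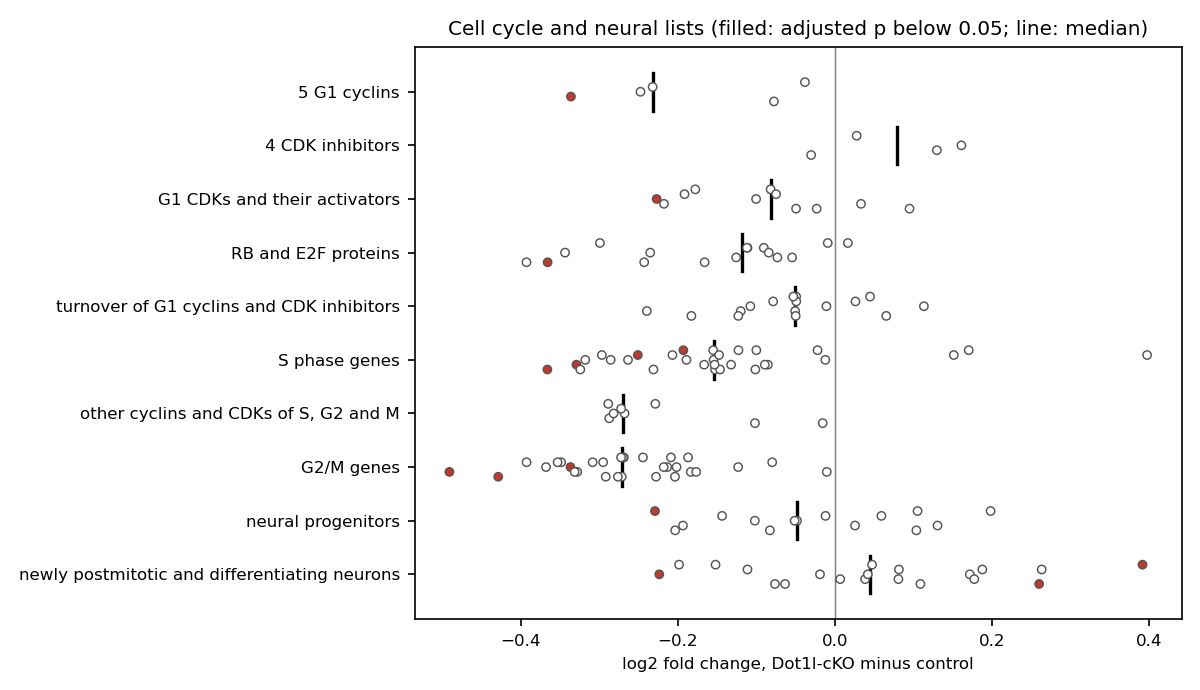
Log2 fold change of *Dot1l*-cKO over control for the members and 8 lists of cell cycle and neural genes, with 1 point a gene, filled points for an adjusted p below 0.05 and lines at the medians. The medians are -0.23 for the 5 G1 cyclins, 0.08 for the 4 inhibitors, -0.15 for S phase and -0.27 for G2/M genes, without the GC correction, under which those of cyclins and inhibitors were -0.16 and 0.016.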

How the data were processed

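Raw gene counts of 10 embryos were deposited by the authors, who had trimmed reads (TrimGalore), aligned them to mm10 (STAR) and counted them per gene (featureCounts, GENCODE), and the library kit does not mark strand. Symbols, positions and exon lengths came from GENCODE M21 of GRCm38, in which 54079 of 54146 gene identifiers matched. Counts were tested in R 4.3.3 with edgeR 4.0.16 (quasi-likelihood test, TMM, default expression filter by genotype, litter in the model), with Benjamini-Hochberg adjusted p-values over 18901 genes at 0.05. A second fit with 1 mean per litter and genotype gave contrasts within litters and their difference. DESeq2 1.42.0 and limma 3.58.1 served as alternatives. Levels are CPM after TMM, log2 CPM used a prior count of 2, and likeness was taken among genes with a mean log2 CPM of at least 3. Embryo numbers are those of the labels. The members and lists were chosen with earlier results of these data known. Named were all members, *Dot1l*, *E2f1*, *Xist*, in each list described up to 4 called genes, and the 2 genes most like each member. In cell cycle lists with none called, up to 2 genes with the smallest p were named, and in such cell type lists none. *Cdk2*, *Cdk4* and *Cdk6* were named after their values were seen. The GC correction, a smooth curve of each library's deviation on transcript GC, was added after the data were seen. The fit was tested on simulated counts. Pairs of embryos of one group and litter differed beyond counting noise (a chi-square of 9.36 to 26.3 per gene), and total counts per embryo ranged from 40949585 to 68928443. No column of the table was left unused.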

Additional observations from a re-analysis of the deposited data

How the results depend on the processing

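Leaving out each embryo in turn gave 31 to 972 genes called higher and 17 to 422 lower, and 0 to 2 members called lower. Without an expression filter 1346 genes were higher and 855 lower, with 1 member higher (*Cdkn1c*) and 2 lower. DESeq2's Wald test gave 851 and 641 genes and 2 lower members. Without the litter in the model 0 genes passed in either direction (1867 at an unadjusted p below 0.05) and 0 members. With *Xist* as a covariate, which rests mostly on litter 1, 13 genes were higher and 29 lower, with 0 members. Litter 1 alone gave 1 higher and 11 lower genes with 0 members. Litter 2 alone called 964 genes, 747 of them higher and the rest lower, with 1 member higher (*Cdkn1c*) and 1 lower (*Ccnd2*), so 2 within that litter. DESeq2 within litter 1 called 1 member, and the GC correction gave 241 higher genes, 60.1% of its calls, the rest being lower. The cause of these changes was not tested. The sign of *Ccnd1* changed in litter 2 alone (0.013) and of *Ccnd3* there (0.17). With 1 embryo left out, *Ccnd1* ranged from -0.18 to 0.024, *Ccnd3* from -0.11 to 0.054 and *Cdkn2c* from -0.10 to 0.10. The GC correction turned *Cdkn1b* to 0.016 and *Cdkn2c* to -0.080. *Ccne1*, *Ccnd2*, *Ccne2*, *Cdkn1c* and *Cdkn2d* kept their sign in the genotype difference over all fits with 1 embryo left out and the 12 other settings, though with the GC correction *Cdkn1c* was at -0.049 within litter 1. Cyclins minus inhibitors stayed between -0.33 and -0.20 without 1 embryo. Litter 2 rests on 2 embryos a group, and *Cdkn2a* is limited by depth. With library size alone 482 genes were higher and 173 lower, so 73.6% of called genes were higher in place of 62.5%, and with it or with DESeq2's size factors 1 member was called, lower. No paired analysis was possible because embryos of a litter carry unique numbers, and the litter is in the model.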
